A study of Rattus norvegicus with 18 samples.

Results

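The 96 genes described here had more RNA in beta cells of old than of young rats in both states that the study separated, quiescent and replicating. They were chosen from the deposited table of normalized log2 values by 3 conditions. The mean of the old quiescent libraries had to exceed that of the young quiescent libraries by at least 1 on the log2 scale, the same held for replicating cells, and no old quiescent library could lie below a log2 value of 5. Of 27654 genes in the table, 104 met these conditions. The rule then left out 6 genes that were lower in replicating cells by 0.8 or more at both ages, and 4 gene IDs given by name, of which 2 had met the conditions. No gene was left out for being at least 3 higher in replicating cells at both ages. The age differences chose the genes, so they are given as a description without a test.

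RNA was sequenced from sorted beta cells of rat pancreatic islets. Old rats gave 4 libraries of quiescent and 4 of replicating cells, and young rats gave 5 of each. Every islet preparation, old or young, spent a night in RPMI1640 medium holding 10% serum and glucose at 11.1 mM, and received EdU at 10 micromolar. EdU is a thymidine analogue built into new DNA, which marks cells that copied their genome. The series text describes 9 islet batches of 2 pooled rats, each giving a replicating and a quiescent sample. Old and young libraries therefore came from different rats, and any difference between those batches cannot be told apart from age. The labels and series text used here do not state the strain, sex or exact ages of the rats or how the cells were gated. A cell sorted as EdU-positive need not be dividing at the time of the sort, and the labels call the sample cell type pancreatic islets.

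Beta cells make and secrete insulin and seldom divide in adult animals, and their rate of division falls as an animal ages. Genes whose RNA differs with age in a sorted islet population can belong to the beta cells themselves or to other cells of the islet, such as other endocrine cells, blood vessel cells, connective tissue cells and immune cells. In such bulk samples a change in the number of cells of a type and a change in RNA per cell cannot be told apart. The table gives Ensembl rat gene IDs only, and 0 of them could be matched to a symbol in the reference used here. Roles of the 96 genes, marker genes of the cell types and promoter sequences are therefore not described, and the label beta cell was not checked against markers. By a rule set for this case, only the 2 genes with the largest age difference in whichever state showed less of it are named.

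Library totals ran from 2723660 to 14222719 counts, and all 96 genes passed the filter on low counts. The young quiescent and young replicative libraries numbered 1, at 4893860 and 5573995 counts, stood apart in these genes and resembled the old libraries more than the other young libraries did. They also had the most genes with a count, 23879 and 23683, whereas young replicative replicates 4 and 5 had 15462 and 14759. Old replicative replicates 2, 3 and 4 had 15215, 11859 and 13310. Results below are given with and without the young libraries numbered 1 where these bear on them.

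The age difference was usually close to the threshold in quiescent cells and wider in replicating cells. In quiescent cells it ran from 1.00 to 8.79 with a median of 1.42 on the log2 scale, where the median of all 14920 genes tested was -0.10. In replicating cells it ran from 1.04 to 7.11 with a median of 1.79, against -0.45 for all genes tested. The difference was larger in replicating than in quiescent cells for 66 genes and smaller for 30. At the thresholds, the 3 genes just inside the quiescent limit had differences of 1.005, 1.015 and 1.019, and the 3 just outside 0.998, 0.991 and 0.984. In replicating cells the 3 just inside had 1.043, 1.049 and 1.062 and the 3 just outside 0.996, 0.993 and 0.993. For the lowest old quiescent value, the 3 nearest inside stood at 5.04 and those outside at 4.98, 4.97 and 4.97.

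**Figure D1:**
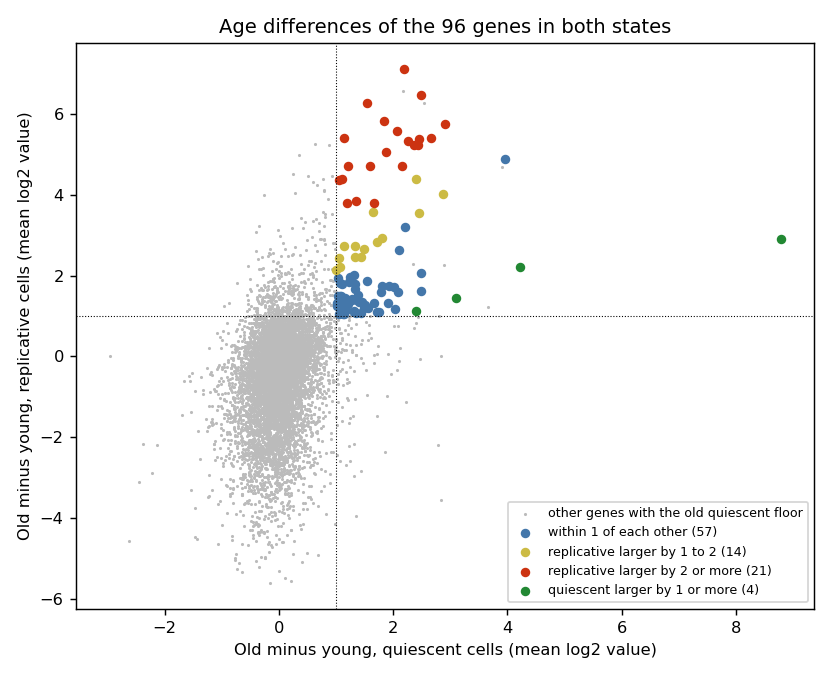
Old minus young difference of mean log2 values in quiescent cells (horizontal axis) and in replicating cells (vertical axis), with 1 point per gene among those whose old quiescent libraries all reached a log2 value of 5. Dotted lines mark the limit of 1, grey points in the upper right corner are genes left out by the rule, and colours split the 96 genes by the gap between their 2 differences: 57 lie near the diagonal and 21 rise well above it.

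Averaged over the 96 genes, old libraries were above young ones in every comparison of libraries within a state. The rule chose the genes by age differences in these same libraries, so this describes the genes and tests nothing. The mean log2 value was 7.43, 8.18, 7.61 and 7.56 in old quiescent replicates 1 to 4 and 6.95, 5.98, 5.86, 5.46 and 5.67 in young quiescent replicates 1 to 5. The groups did not overlap, and young quiescent replicate 1 came nearest to the old libraries. In replicating cells it was 8.65, 9.30, 8.73 and 8.42 in old and 7.42, 6.63, 6.58, 5.43 and 5.07 in young libraries. Here too the groups did not overlap, with young replicate 1 the highest and replicates 4 and 5 the lowest of the young. As a share of all counts, the genes held 0.789% ± 0.136 in old quiescent (SD, n = 4), 1.97% ± 0.951 in old replicative (SD, n = 4), 0.283% ± 0.132 in young quiescent (SD, n = 5) and 0.349% ± 0.160 in young replicative libraries (SD, n = 5). Old replicative replicate 2 alone reached 3.39%, and the other old replicative libraries stood at 1.39% to 1.63%.

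**Figure D2:**
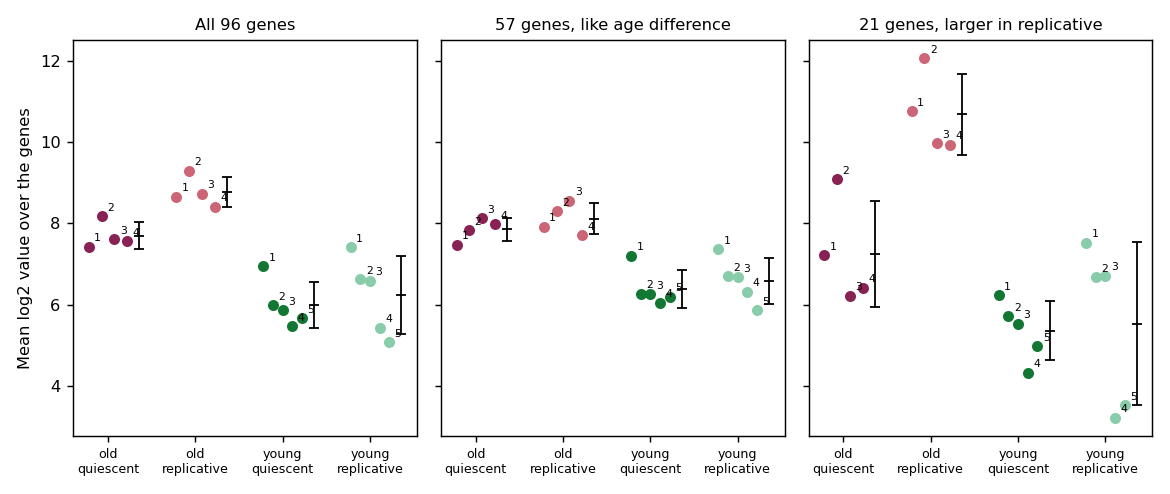
Mean deposited log2 value per library (vertical axis) over all 96 genes, over the 57 genes with like age differences and over the 21 genes with a larger difference in replicating cells, by group (horizontal axis). Points are libraries numbered by replicate and bars are mean ± SD; old libraries lie above young ones in the first 2 panels, and in the third young replicative replicates 4 and 5 fall to 3.21 and 3.52.

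Single genes overlapped more often than their average did. Of the 96 genes, 43 had every old quiescent library above every young quiescent one, beside 1.96% of all genes tested. In replicating cells 37 genes showed no overlap, beside 2.49% of all genes, and 19 showed none in either state, beside 0.201%. Without the young libraries numbered 1 these counts were 72, 47 and 35, beside 4.2%, 3.09% and 0.637% of all genes. The rule used the same libraries and differences, so nothing is read from these counts against their backgrounds. Zero counts occurred in 16 of the genes, in 4 of them among old replicative libraries and in 13 among young replicative ones, where replicates 4 and 5 held 7 each.

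In the model of all 4 groups, 2 of the 96 genes were called higher in old quiescent cells (edgeR quasi-likelihood test, Benjamini-Hochberg adjusted p under 0.05), and 0 lower, beside 0.0201% of 14920 genes called higher and 0.0067% called lower. In replicating cells 49 were called higher in old and 0 lower, beside 3.29% and 3.87% of all genes, and the 49 included both genes called in quiescent cells. As the rule used both contrasts, these counts describe the genes and test nothing. They differed widely between fits, and so did the share of all genes called. Fitted on the quiescent libraries alone 35 of the 96 genes were called, beside 2.01% of all genes, and on the replicative libraries alone 14, beside 0.466%. In limma-voom with quality weights the counts were 73, beside 10.5% of all genes, and 23, beside 1.27%. The quiescent count was 6 without both young libraries numbered 1, beside 0.078% of all genes, and 4 without old or young quiescent replicate 1 alone. It was 1 without old quiescent replicate 3 or 4 or young quiescent replicate 5, and 0 without old quiescent replicate 2 or young quiescent replicate 2 or 3. In these fits with a single library left out, 0.0% to 0.0842% of all genes were called. At an unadjusted p under 0.05, 70 of the genes differed in quiescent cells, beside 4.91% of all genes, and 80 in replicating cells, beside 22.4%.

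ENSRNOG00000006957 had the largest age difference in the state with less of it. Its log2 values were 6.95, 8.33, 5.41 and 7.003 in old quiescent and 4.57, 3.03, 2.82, 1.58 and 2.84 in young quiescent libraries. In replicating cells they were 7.36, 9.10, 8.44 and 9.22 in old and 4.43, 3.57, 3.61, 4.09 and 2.54 in young libraries. No old library overlapped a young one in either state, and the young libraries held only 3 to 20 reads of this gene each. The edgeR age difference was 4.28 (SE 0.695, adjusted p = 0.0149) in quiescent and 5.00 (SE 0.703, adjusted p = 0.0012) in replicating cells. The gene was named for its age difference in these same libraries, so these values and calls describe it and test nothing. The quiescent call was lost in 7 of 28 alternatives, among them leaving out old quiescent replicate 2 or young quiescent replicate 2, 3 or 5 (range of adjusted p over all alternatives 2.08e-06 to 0.0987), and the replicating one in 0 of 28. Its replication effect in old cells was 1.31 (SE 0.656, edgeR adjusted p = 0.198).

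ENSRNOG00000029212 came next and behaved less evenly. Its log2 values were 8.59, 10.77, 6.90 and 6.86 in old quiescent and 6.76, 6.03, 6.38, 3.17 and 4.52 in young quiescent libraries. In replicating cells they were 12.08, 14.09, 10.42 and 10.41 in old and 7.57, 7.61, 8.42, 3.90 and 2.54 in young libraries. The lowest old quiescent libraries lay just above the highest young one, and replicate 2 was the highest old library in both states. In counts, old replicative replicate 2 held 25553 reads of this gene and young replicative replicate 5 held 4. This gene too was named for its age difference, so the fitted values that follow describe it and test nothing. The edgeR age difference was 3.52 (SE 1.20, adjusted p = 0.689) in quiescent and 5.36 (SE 1.27, adjusted p = 0.0214) in replicating cells, and the replicating call was lost in 3 of 28 alternatives (range of adjusted p 1.06e-05 to 0.226), those on the replicative libraries alone, with quality weights and with a random replicate block.

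**Figure D3:**
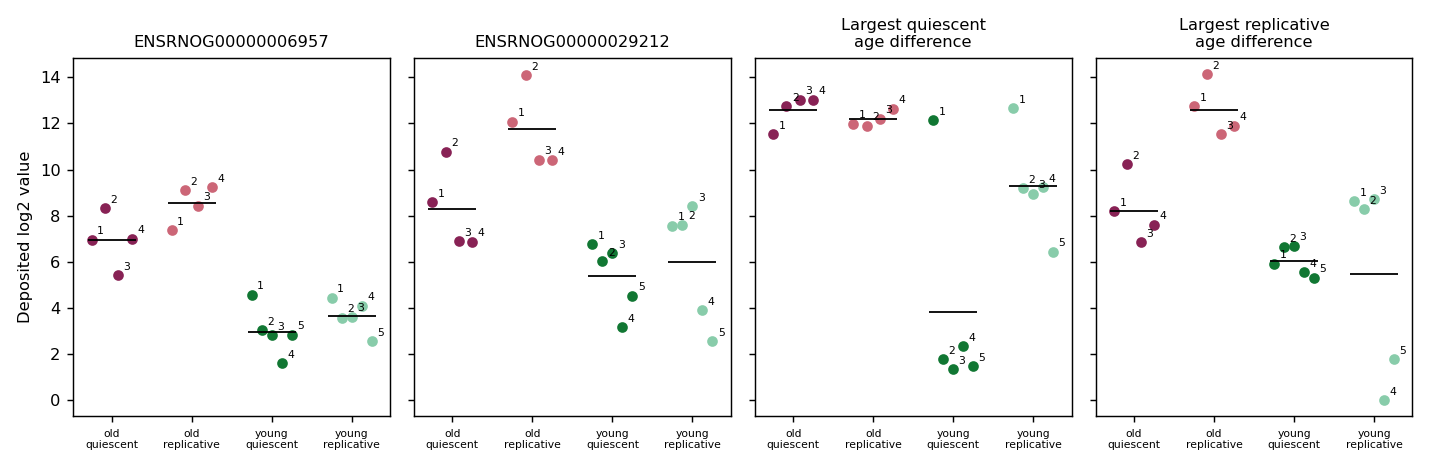
Deposited log2 values (vertical axis) of 4 of the 96 genes in each library, by group (horizontal axis), with points numbered by replicate and lines at group means. The first 2 genes do not overlap between old and young in either state, the third is as high in young replicate 1 as in old libraries, and the fourth has a value of 0 in young replicative replicate 4.

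The genes split by whether their age difference was alike in the 2 states, a division made after their values were seen and therefore not tested. For 57 genes the differences lay within 1 of each other. Another 21 had a difference larger by 2 or more in replicating cells, 14 a difference larger by 1 to 2, and 4 a difference larger by 1 or more in quiescent cells. The boundaries are not natural gaps, since 3 genes lay within 0.25 of the limit of 2 and 13 within 0.25 of the limit of 1.

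The 57 genes with like differences had medians of 1.32 in quiescent and 1.36 in replicating cells. Their mean log2 value was 7.48, 7.83, 8.13 and 7.98 in old quiescent, 7.21, 6.26, 6.25, 6.04 and 6.19 in young quiescent, 7.92, 8.30, 8.56 and 7.71 in old replicative, and 7.37, 6.69, 6.68, 6.32 and 5.86 in young replicative libraries. Young replicate 1 was the highest young library in both states, and no old library fell below it in the same state. With replication these genes had a median edgeR log2 fold change of 0.49 in old and 0.21 in young cells. Of the 57, 3 were called in old and 1 in young cells, all higher in replicating cells. Of all genes, 7.16% were called higher in old and 2.25% in young cells, so nothing is read from these counts.

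The 21 genes with the wider difference in replicating cells had medians of 1.88 in quiescent and 5.23 in replicating cells. Their mean log2 value was 7.22, 9.09, 6.22 and 6.42 in old quiescent and 6.22, 5.71, 5.53, 4.32 and 4.98 in young quiescent libraries, so that young replicate 1 equalled the lowest old library. In replicating cells it was 10.77, 12.07, 9.98 and 9.95 in old and 7.53, 6.68, 6.71, 3.21 and 3.52 in young libraries. Young replicative replicates 4 and 5 were thus well below the other young replicative libraries in this class. All 21 genes were highest in replicate 2 among old quiescent libraries, which was true of 20.6% of all genes tested, and 17 were highest in replicate 2 among old replicative libraries, against 25.3% of all genes. Young replicative replicates 4 and 5 also had the fewest genes with a count among young libraries, and the part of this in the result was not tested.

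Within groups these 21 genes moved together across libraries. After each group's mean was removed, the median correlation between pairs of them over the 18 libraries was 0.66, against 0.15 among the 57 genes with like differences and 0.01 among the 9124 genes whose old quiescent libraries all reached a log2 value of 5. The points share libraries and depth, so these values are a description. Group means, which the rule used, were removed, but this does not free the values from the choice of genes. A class chosen for a wide replicating difference can favour genes that are extreme in the same few libraries. Such genes also correlate within groups. The 57 genes and the 9124 genes were not chosen in that way, so nothing is read from the comparison. The 2 gene IDs that met the conditions but were left out by name followed the mean of the 21 genes with correlations of 0.96 and 0.96. A correlation with a mean of genes is not comparable with the median of 0.66 between single genes. The age differences of these 2 IDs were 2.54 and 2.17 in quiescent and 6.27 and 6.56 in replicating cells.

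**Figure D4:**
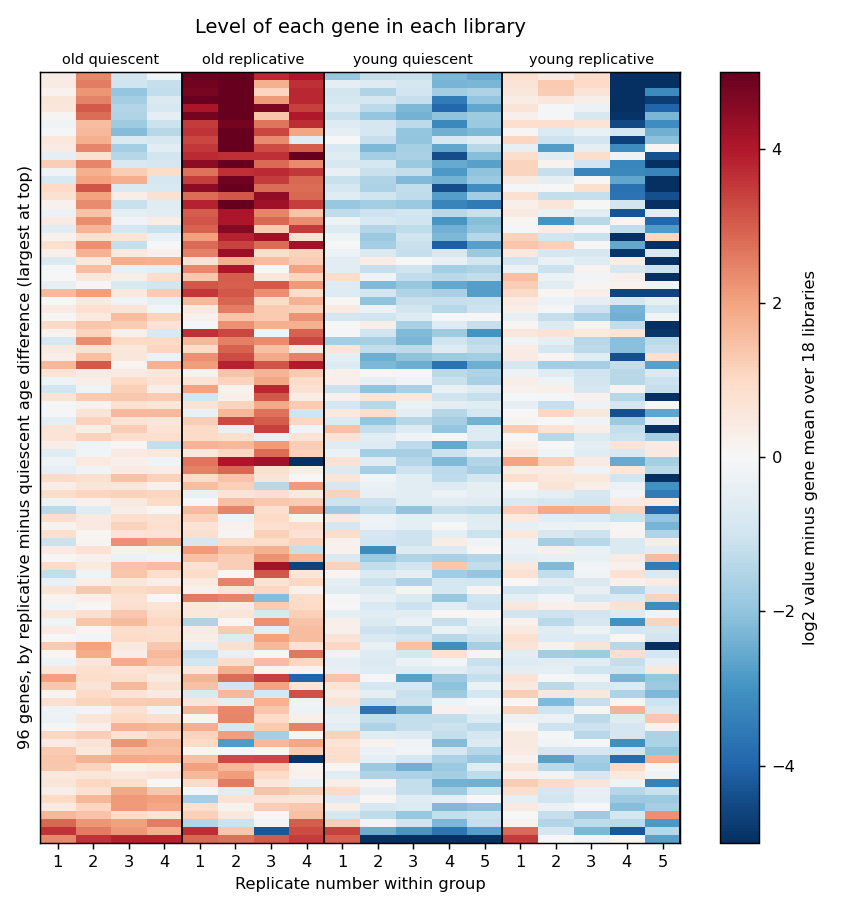
Level of each of the 96 genes (rows, ordered by how far the replicating age difference exceeds the quiescent one) in each of the 18 libraries (columns, by group and replicate number), as log2 value minus the gene's mean, with colours cut at -5 and 5. The upper rows are darkest red in old replicative replicate 2 and darkest blue in young replicative replicates 4 and 5, and the lowest row is red in young replicate 1 of both states.

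The gene with the largest replicating difference, at 7.11, belonged to these 21. Its log2 values were 12.75, 14.14, 11.53 and 11.91 in old replicative libraries and 8.62, 8.27, 8.72, 0 and 1.77 in young ones. The last 2 young values stand for 0 and 2 reads in libraries of 5790871 and 5439091 counts, beside 382, 427 and 561 reads in the other young libraries. The young libraries thus fell in 2 clusters, both below every old replicative library. In quiescent cells it had 8.20, 10.22, 6.84 and 7.60 in old and 5.90, 6.63, 6.70, 5.55 and 5.31 in young libraries, a difference of 2.20.

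The 4 genes with the wider difference in quiescent cells were uneven among young libraries. Their mean log2 value was 8.85, 8.68, 8.47 and 8.45 in old quiescent libraries and 7.92, 3.40, 2.82, 2.75 and 3.05 in young quiescent ones. In replicating cells it was 7.79, 7.12, 5.90 and 9.04 in old and 7.85, 5.37, 4.85, 4.63 and 5.04 in young libraries. The groups overlapped there, with young replicative replicate 1 above old replicative replicates 1, 2 and 3. These means hide unlike genes. In young quiescent replicate 1, 2 of the 4 genes lay within the range of the old quiescent libraries, at 12.15 and 7.64. The third stood at 7.51 there, between 8.35, its lowest old value, and 6.13, its next young one. The fourth was low in all 5 young quiescent libraries, at 4.40, 3.94, 3.33, 4.04 and 4.15, against 5.87 to 6.87 in old ones. The extreme case, with the quiescent difference of 8.79, had 1, 2, 8 and 2 reads in young quiescent replicates 2 to 5, 3388 in replicate 1 and 4243 to 12392 in the old quiescent libraries. In young replicative libraries the same gene had 6273, 802, 659, 560 and 71 reads. It was thus near absence in 4 young quiescent libraries and plainly present in all 5 young replicative ones.

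Young replicate 1 was often the highest of its group among the 96 genes, not only in those 4. It was the highest young quiescent library in 71 genes (74.0%, against 39.0% of all genes tested) and the highest young replicative library in 48 (50.0%, against 20.8%). Both libraries were the highest of their group in 44 genes, beside 13.9% of all genes tested. Young quiescent replicate 1 lay nearer to the old mean than to the mean of the other young libraries in 60 genes, and young replicative replicate 1 in 48. Without these libraries the median age difference of the 96 genes was 1.61 in quiescent and 2.08 in replicating cells.

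The rule was also applied with libraries left out, so that the genes chosen could be read in libraries that had not chosen them. Leaving out the quiescent and replicative library of each age and number in turn gave 76 to 131 genes, of which 65 to 93 were among the 96. The left-out old quiescent libraries exceeded the young mean by medians of 0.98 to 1.48 over the genes chosen, with 85.1% to 95.6% of the genes above 0. Of all genes with the floor in every old quiescent library, 47.8% to 51.3% were above 0. The genes chosen here met the floor only in the old quiescent libraries kept, so the floors differ. The left-out old replicative libraries exceeded the young mean by medians of 1.74 to 2.11, with 81.6% to 88.5% of genes above 0, against 43.6% to 49.7% of the genes with the floor. Each old library thus lay above the young mean for most genes chosen without it. That young mean came from libraries that chose the genes, whereas the genes with the floor were not chosen by age difference. The choice itself therefore raises the share above 0, and these values test nothing.

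Among young libraries the number left out mattered. For numbers 2 to 5 the old mean exceeded the left-out quiescent library by medians of 1.49 to 1.91 and the left-out replicative library by 1.88 to 2.88. For number 1 these medians were 0.45 and 1.10, and the quiescent difference was at least 1 in 34 of 131 genes, against 73.6% to 77.9% of genes for the other numbers. The other side of each of these differences still came from libraries that chose the genes.

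**Figure D5:**
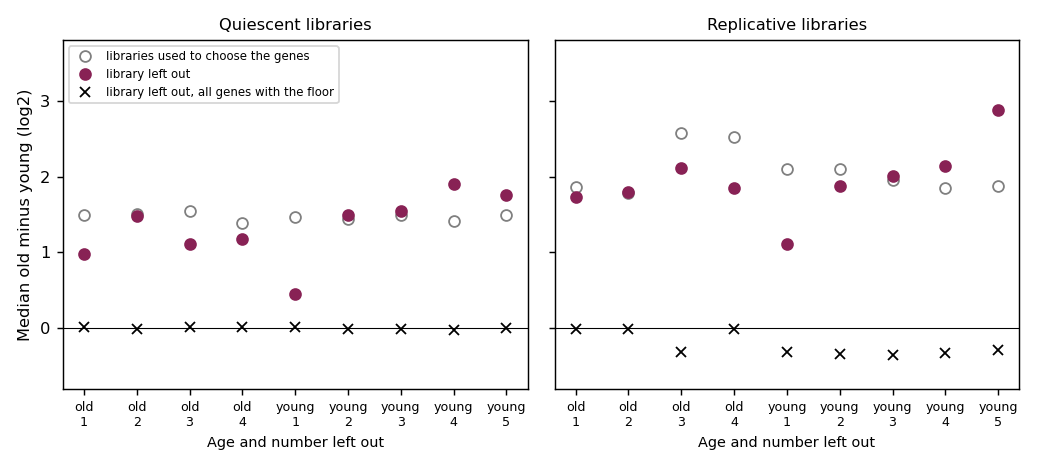
Median old minus young difference in log2 value (vertical axis) over genes chosen without the libraries named on the horizontal axis, in quiescent and replicative libraries. Filled points give the left-out library against the mean of the other age, open points the libraries that chose the genes, and crosses the left-out library over all genes with the floor; young number 1 lies lowest, at 0.45 and 1.10.

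Whether these genes changed with replication was read from the same model. In old cells 18 of the 96 were called higher in replicating than in quiescent cells (edgeR adjusted p under 0.05) and 0 lower, beside 7.16% and 6.6% of all genes. Of these, 11 belonged to the 21 genes with the wider replicating difference. That class was defined by the age difference in replicating cells minus that in quiescent cells. This equals the replication effect in old cells minus that in young cells, so the 11 are no separate result. In old cells 72 of the 96 had a log2 fold change above 0, with a median of 0.96, against 0.01 over all genes tested. These comparisons share the old libraries with the rule, and the rule leaves out genes that change strongly at both ages, so the counts are no independent result. Leaving out single libraries moved the old count between 6, without old quiescent replicate 4, and 30, without young replicative replicate 5. The shares of all genes called there were 7.34% and 15.8%. The count was 8 and 9 without old quiescent replicates 1 and 3, beside 8.75% and 7.24%, and 11 without old replicative replicate 2, beside 13.3%.

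In young cells 2 of the 96 genes were called higher in replicating cells and 0 lower, beside 2.25% and 0.214% of all genes, a share near that of all genes. Both were also called higher in old replicating cells. The count was 1 without young quiescent replicate 3 or young replicative replicate 2, beside 2.01% and 2.22% of all genes. Without young replicative replicate 5 it was 5, beside 2.63%. The interaction of age and replication takes the change with replication in young cells from that in old cells. It was called in 0 of the 96 genes in edgeR, beside 0.0% of all genes with a positive and 0.0268% with a negative value. At an unadjusted p under 0.05 it counted 9 (9.38%), beside 10.1% of all genes. DESeq2 and limma-voom with quality weights also called 0, beside 1.38% and 0.0134% of all genes. The rule also limits this comparison, because it asks for an age difference in both states.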

How the data were processed

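The authors deposited 2 tables over the same Ensembl IDs, read counts as whole numbers and log2 values. Per the submitters' processing notes the tools were STAR and DESeq2 and the build was rn6, with no roles stated. How reads were counted, and whether by strand, was not given in the sources used here. Recomputation showed that the deposited log2 values are log2(x + 1), where x is the count scaled by size factors from the median-of-ratios method (100% of values matched within 1e-06). Values are not scaled by gene length, so levels are compared between libraries and not between genes.

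Counts were tested with edgeR 4.0.16 in R 4.3.3 (filterByExpr with a minimum count of 10, 14920 genes kept; TMM; 4 group means over 18 libraries; robust quasi-likelihood F test; Benjamini-Hochberg adjustment over all genes tested, threshold 0.05). The procedure was also run on simulated counts with the same spread in all genes and groups and with independent libraries. Whether it holds at the spread of the real libraries was not tested. Standard errors are the log2 fold change over the square root of F. Alternatives used DESeq2 1.42.0, limma 3.58.1 with statmod 1.5.0, other scalings, filters and fits, counts thinned to 2723660, and left-out libraries. Replicates are taken as separate samples from the labels. The named genes are the 2 with the largest smaller age difference, the limit where IDs have no symbol; other genes with single values were picked after their values were seen. The 27 gene lists could not be run without symbols. The genes and lists were chosen with earlier results of these data known.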

Additional observations from a re-analysis of the deposited data

Results flagged for a closer look

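A library was picked out where its gap to the nearest other library of its group was large against the group's range (above 0.829 of the range for 4 libraries and 0.710 for 5). The limits are set so that chance alone would pass them in about 1 in 20 groups. Of all genes tested, 5.76% had a library picked out in old quiescent and 5.7% in young quiescent cells. In replicating cells it was more, 13.7% in old and 14.4% in young. Of the 8 results, 4 concern classes of genes or a single gene, and each of these picked out young replicate 1. It was high in the mean log2 value over the 4 genes with the wider quiescent difference, at 7.92 in young quiescent and 7.85 in young replicative cells. It was also high over the 57 genes with like differences in young quiescent cells, at 7.21. In the gene with the largest quiescent difference it had a log2 value of 12.15 in young quiescent cells.

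The other results concern the share of counts held by the 96 genes. That share was high in young quiescent replicate 1 (0.518%), in young replicative replicate 1 (0.632%) and in old replicative replicate 2 (3.39%), and low in old quiescent replicate 1 (0.586%).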

How the results depend on the processing

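The rule gave 80 to 120 genes when single libraries were left out. It gave 48 genes, 42 of them among the 96, with counts thinned to the smallest library, which lowers every value against the fixed floor; thinned values set back to the mean depth, an alternative added after seeing the data, gave 95 genes, 81 of them among the 96. Called members in quiescent cells of old against young (2 as reported) were 35 in the 2 groups alone and 10 in DESeq2. They were 73 in limma-voom with quality weights, 0 in limma-trend and 1 with thinned counts. Without both young libraries numbered 1, also added after seeing the data, they were 6. In that order the shares of all genes called were 2.01%, 0.213%, 10.5%, 0.0201%, 0.0159% and 0.078%. Single libraries left out gave 0 to 4, beside 0.0% to 0.0882% of all genes. In replicating cells (49) the called members were 14 in the 2 groups alone and 23 in limma-voom with quality weights, beside 0.466% and 1.27% of all genes. Single libraries left out gave 33, beside 4.49%, to 53, beside 10.3%. For replication in old cells (18) they were 11 in the 2 groups alone, 38 in DESeq2 and 10 without a low-count filter. The shares of all genes called were 4.41%, 12.1% and 6.12%, beside 13.8% in the reported fit. Single libraries left out gave 6, beside 7.34% of all genes, to 30, beside 15.8%. In young cells (2) the called members were 5 in DESeq2, 17 with quality weights and 1 in limma-trend. The shares of all genes called were 2.14%, 19.7% and 2.41%, beside 2.47% in the reported fit. Single libraries left out gave 1, beside 2.01% or 2.22% of all genes, to 5, beside 2.63%. The interaction (0) was 1, with a negative value, without both young libraries numbered 1, beside 0.00709% of all genes. It was 0 whenever a single library was left out, beside 0.0% to 1.48% of all genes. The cause of these changes was not tested. Against TMM, RLE factors moved the median log2 fold change of all genes in replication in old cells from 0.01 to 0.14, and upper-quartile factors that of old against young in replicating cells from -0.05 to -0.20.

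Quiescent and replicative libraries of the same number deviated together over all genes tested with correlations of 0.09 to 0.18 in old and 0.04 to 0.51 in young cells, not above 0.1 in every pair. Over the 96 genes they were 0.20 to 0.55 and 0.29 to 0.54, above 0.1 in each pair. The series text gives each islet batch both states but does not say that the number marks the batch, so the fits without a block are the ones reported and the block counts stand beside them here. If the number does mark the batch, the reported fits leave that pairing out. Over all genes tested 4 of 4 old and 4 of 5 young quiescent libraries correlated best with their own number. With a random replicate block the called members were 1 in quiescent old against young and 52 in replicating cells, beside 0.0268% and 11.5% of all genes. With a fixed block they were 28 in old replication (25 higher and 3 lower) and 3 in young replication, beside 13.1% and 2.68% of all genes. The fixed block gave 1, with a positive value, in the interaction, beside 0.0737% of all genes. Depth limits genes such as ENSRNOG00000006957, with 3 to 20 reads in young libraries.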
